A study of Mus musculus with 4 samples.

Results

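The genes described are those of elastin and of the microfibrils on which elastin is laid down: Eln, Fbn1, Fbn2, Fbln5, Efemp2, Mfap2, Mfap4, Mfap5, Emilin1 and Ltbp2. They were taken by gene name from the probes of an Agilent mouse array, and all 10 were present, with 13 of the 39429 probes. Of all names on the array, these were 10 of 30458. RNA of 4 samples was measured, 1 array each. The stem cells were mesenchymal cells from embryos of the C3H background. The transfected tissue was the ligament-like tissue formed from such cells carrying a synthesized mouse gene, named only A in the labels, in the plasmid pCAGGS. Wild type ligament and ligament of mice made transgenic for A with the same plasmid were both of the C57BL/6J background. pCAGGS drives expression broadly and strongly, so the transgene was not limited to ligament cells by its promoter. The labels used here give no age, ligament site or number of animals, and A was not matched to any probe, so its own level could not be read. Cells and ligament differed in strain and origin together, and these cannot be told apart.

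Elastic fibres let skin, vessels, lung and ligament stretch and recoil. Fibrillin microfibrils form first and act as a scaffold, tropoelastin is brought to them by the short fibulins, and lysyl oxidases crosslink it into an insoluble core. In tendon and ligament, where most of the matrix is collagen I, elastic fibres and elastin-free microfibrils run between the collagen fascicles. Microfibrils also hold latent TGF-beta and BMP, so the same scaffold bears on growth factor supply.

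The signal of a probe is given as normalised log2 signal, the log2 of the scanner's processed signal minus the 75th percentile of that array. A value of 0 is therefore a spot as bright as the 75th percentile. That percentile was 1165 and 2272 for stem cells and transfected tissue, and 285 and 303 for the wild type and transgenic ligaments, and 49.0% to 56.3% of spots were well above background. The error after ± is the scanner software's own signal error, carried to the log2 scale, and for a difference the root of the summed squares of both arrays' errors. It covers the spot and not the spread between cultures or animals, which 1 array per group cannot give, so no p-value was computed. A gene was called higher or lower from 2-fold. Where 1 of the arrays had no signal well above background, the fold could only be bounded from below and is written as at least N-fold. An exception is Mfap2 in wild type ligament against stem cells, given below as a plain difference. Levels of different probes were not set against each other.

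Of the 10 tendon and ligament markers listed, 9, 9, 9 and 10 were well above background in stem cells, transfected tissue, wild type and transgenic ligament. Mkx, a tendon transcription factor, was not well above background in wild type ligament, and Thbs4, a tendon matrix protein, was not in the transfected tissue. The ligament arrays also carried marker RNA of other tissues. The summed linear level of 10 skeletal muscle markers, in units of the 75th percentile, was 8192 in wild type and 7439 in transgenic ligament, against 2.02 in stem cells and 0.726 in the transfected tissue. For 8 neutrophil markers it was 1195 in wild type and 427 in transgenic ligament, against 0.640 and 0.522 in the cells. Such RNA takes part of each ligament array, and its part in the differences between cells and ligament was not tested. In bulk RNA, fewer cells of a type and less RNA per cell cannot be told apart.

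The sequences below are shown because what could be said of these genes turned on the probe or on how alike the profiles were. Mfap2 and Fbln5 each had a pair of probes that gave different sizes of change. Of the Mfap2 pair, the probe that could be read on all 4 arrays lay at chr4:140570920-140570979 (mm9, plus strand). The Emilin1 probe covered 60 bases but spanned chr5:31222545-31223001 (mm9, plus strand), so its genomic span holds bases that the probe does not. In both probes the letters are given as the array design has them, with no capitals because no motif was marked.

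Mfap2 probe: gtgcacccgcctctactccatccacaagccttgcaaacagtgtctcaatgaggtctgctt
Emilin1 probe: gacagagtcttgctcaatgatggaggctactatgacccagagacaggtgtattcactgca

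Promoter entries of RefSeq (build GRCm38.p6) were found for 6 of the 10 genes, 10 entries in all, and the 250 bases before the start are shown for 3. Fbn1 and Ltbp2 are shown as genes that were high in cells, and Mfap2 as one that was high in ligament. Capitals mark the GC box, GGGCGG, and the SMAD element, CAGAC, on either strand. The TATA box, TATAAA, and the AP-1 site, TGANTCA, were searched as well, and no printed match overlapped another.

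Fbn1 promoter, chr2:125506439-125506688, minus strand: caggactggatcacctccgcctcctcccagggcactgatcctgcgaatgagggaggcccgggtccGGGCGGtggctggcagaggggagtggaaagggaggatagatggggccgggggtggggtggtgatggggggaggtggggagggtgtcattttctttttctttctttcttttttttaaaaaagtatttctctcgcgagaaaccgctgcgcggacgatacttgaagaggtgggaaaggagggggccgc
Ltbp2 promoter, chr12:84876492-84876741, minus strand: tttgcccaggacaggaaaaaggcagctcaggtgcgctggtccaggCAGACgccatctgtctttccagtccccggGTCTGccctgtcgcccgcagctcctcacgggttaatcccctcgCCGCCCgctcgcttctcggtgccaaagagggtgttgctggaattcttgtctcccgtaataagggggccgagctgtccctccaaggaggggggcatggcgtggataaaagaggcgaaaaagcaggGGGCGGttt
Mfap2 promoter, chr4:141010174-141010423, plus strand: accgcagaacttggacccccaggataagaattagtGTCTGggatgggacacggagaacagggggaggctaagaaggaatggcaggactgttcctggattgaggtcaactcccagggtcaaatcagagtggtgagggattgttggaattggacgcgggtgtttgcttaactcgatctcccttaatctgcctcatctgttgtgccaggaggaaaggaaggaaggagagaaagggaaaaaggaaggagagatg

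The GC box of Fbn1 lay 185 bases before the start, and those of Ltbp2 133 and 9 bases before it. Ltbp2 also held the SMAD element at 205 and 176 bases, and this Mfap2 entry held it at 215 bases. A second Mfap2 entry, a little downstream, held GC boxes at 51 and 7 bases, so the gene is not marked by their absence. Over the 10 entries the GC box was found in 7 and the SMAD element in 5, against 32.7% and 42.2% of 32841 promoters in the table. Neither the TATA box nor the AP-1 site was in any of the 10, against 12.4% and 6.75% of the table. A match describes these letters only, and several entries belong to the same gene.

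Across the 4 arrays the genes fell into a pattern of 8 and 2. Eln, Fbn1, Fbn2, Fbln5, Efemp2, Mfap5, Emilin1 and Ltbp2 were brightest in stem cells, next in the transfected tissue and dimmest in the ligaments. For Mfap5 the step between stem cells and transfected tissue was within the summed errors. Mfap2 and Mfap4 were brighter in both ligaments than in either cell sample.

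**Figure D1:**
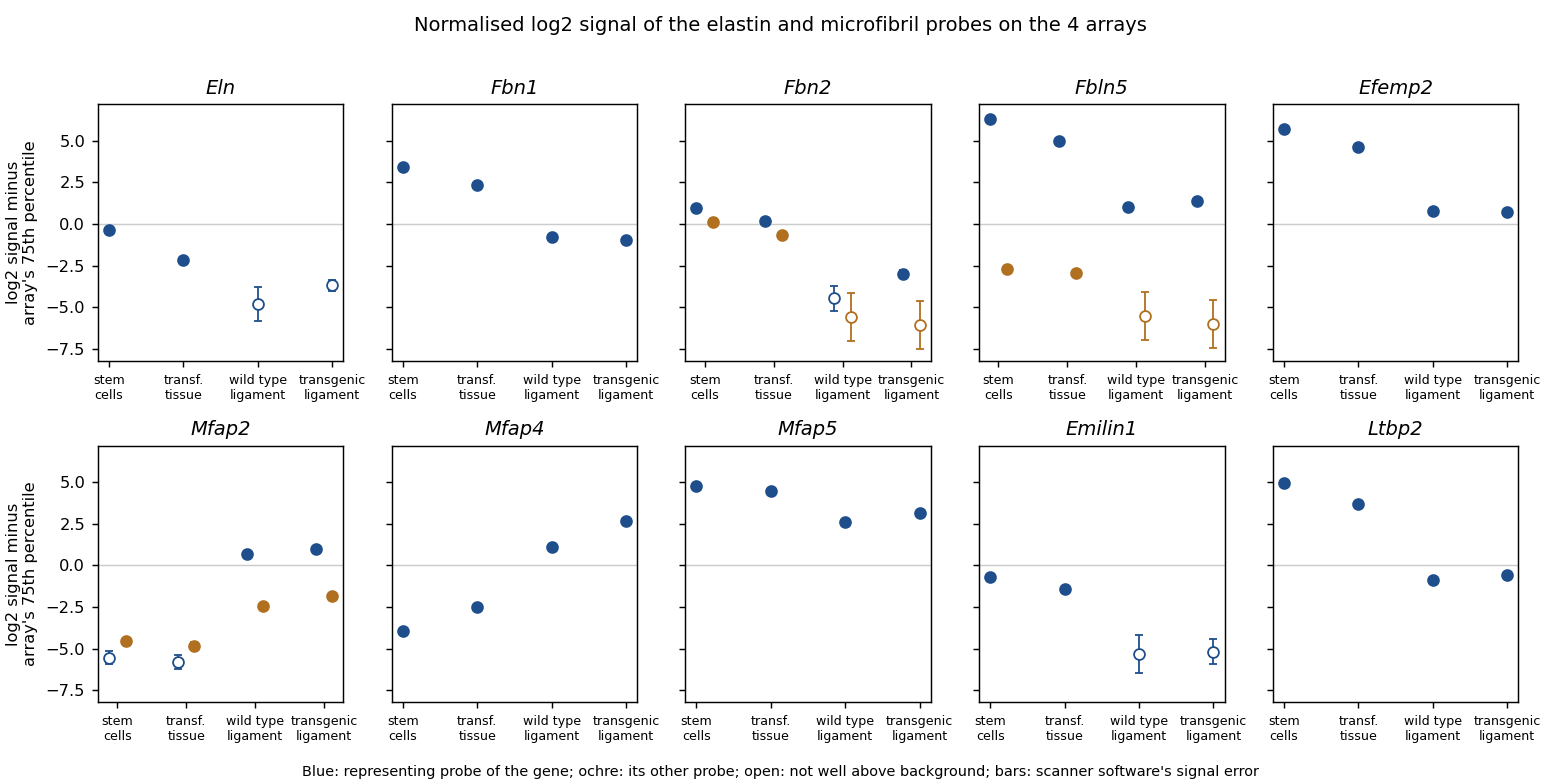
Normalised log2 signal (y axis, 0 is the 75th percentile of the array) of every probe of the 10 genes on each of the 4 arrays, 1 panel per gene. Blue is the representing probe and ochre the other one, bars are the scanner software's signal error (hidden by many symbols), and open symbols are not well above background; Mfap2 and Mfap4 are the genes whose ligament points lie above their cell points.

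Eln encodes tropoelastin, the monomer of the elastic core, and its probe lay at chr5:135179129-135179188 (mm9, minus strand). Stem cells had a normalised log2 signal of −0.35 ± 0.14 and the transfected tissue one of −2.18 ± 0.15. The wild type ligament had −4.81 ± 1.02 and the transgenic one −3.68 ± 0.35. Before normalisation these were processed signals of 913, 503, 10.2 and 23.5. Eln was thus high in the cells and not well above background in either ligament, where its level is only a bound. Emilin1, a glycoprotein at the interface of elastin and microfibrils, had the same shape, at −0.69 and −1.44 in the cells and −5.32 and −5.17, both not well above background, in wild type and transgenic ligament.

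The fibrillins build the microfibril itself, fibrillin-2 mainly before birth and fibrillin-1 throughout life. Fbn1 (probe at chr2:125126727-125126786, mm9, minus strand) had normalised log2 signals of 3.42, 2.32, −0.79 and −0.99 in stem cells, transfected tissue, wild type and transgenic ligament. All 4 spots were well above background, and the ligaments differed by less than their summed errors. Fbn2 read 0.94 and 0.21 in the cells. It was −2.97 in transgenic ligament and −4.46, not well above background, in wild type ligament, while its other probe was not well above background in either ligament.

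Fibulin-5 (Fbln5) and fibulin-4 (Efemp2) carry tropoelastin and lysyl oxidase to the microfibril. Efemp2 (chr19:5481762-5481821, mm9) had 5.70, 4.64, 0.79 and 0.74 in stem cells, transfected tissue, wild type and transgenic ligament, the ligaments again within their errors. Fbln5 (chr12:102988153-102988212, mm9, minus strand) had 6.33, 4.96, 1.05 and 1.37, with transgenic above wild type ligament by more than the summed errors. Its other probe, 3215 bases away, had −2.70 and −2.93 in the cells and no signal well above background in the ligaments. Ltbp2, a latent TGF-beta binding protein relative that binds fibrillin and fibulin-5, had 4.96, 3.69, −0.87 and −0.58 from its probe at chr12:86124167-86124226 (mm9, minus strand).

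The small microfibril-associated glycoproteins did not run together. MAGP-2 (Mfap5) had 4.76 and 4.48 in stem cells and transfected tissue, within the summed errors, and 2.62 and 3.13 in wild type and transgenic ligament. MAGP-1 (Mfap2) had 0.69 and 0.97 in the ligaments, and −5.54 and −5.80, neither well above background, in stem cells and transfected tissue. The Mfap2 probe printed above, 848 bases from the other, was well above background on every array, at −4.53, −4.83, −2.46 and −1.83 in the order stem cells, transfected tissue, wild type and transgenic ligament. Both probes put ligament above cells, with a gap that was smaller on the printed probe.

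Mfap4, a fibrinogen-related protein that binds tropoelastin and fibrillin, was read by 1 probe at chr11:61302147-61302206 (mm9, plus strand). Stem cells had a normalised log2 signal of −3.93 ± 0.17 and the transfected tissue one of −2.51 ± 0.15. The wild type ligament had 1.11 ± 0.14 and the transgenic one 2.67 ± 0.14. Each step exceeded the summed errors, so Mfap4 was the gene for which both samples carrying A lay above their counterparts by more than 2-fold.

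The first comparison set the transfected tissue against the stem cells it came from, which the design asks about as the effect of bringing in A. No tissue formed without A was measured, so A, transfection and tissue formation cannot be told apart in this comparison. Of the 9 elastic fibre genes with a value, 5 were lower in the tissue and 1 higher, a count that depended on the scaling. Over all 17905 genes with a value, 13.3% were lower and 11.0% higher. The median log2 difference was −1.06 over the 9 genes and −0.08 over all genes. Eln was the lowest of them, at −1.82 ± 0.21, or 3.54-fold lower. Fbln5 was lower by 2.58-fold, Ltbp2 by 2.40-fold, Fbn1 by 2.14-fold and Efemp2 by 2.08-fold. Emilin1 at −0.75, Fbn2 at −0.73 and Mfap5 at −0.29 were within 2-fold. Mfap4 was higher, at 1.42 ± 0.22 or 2.67-fold, and Mfap2 gave no value on its representing probe and −0.30 ± 0.29 on the other.

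**Figure D2:**
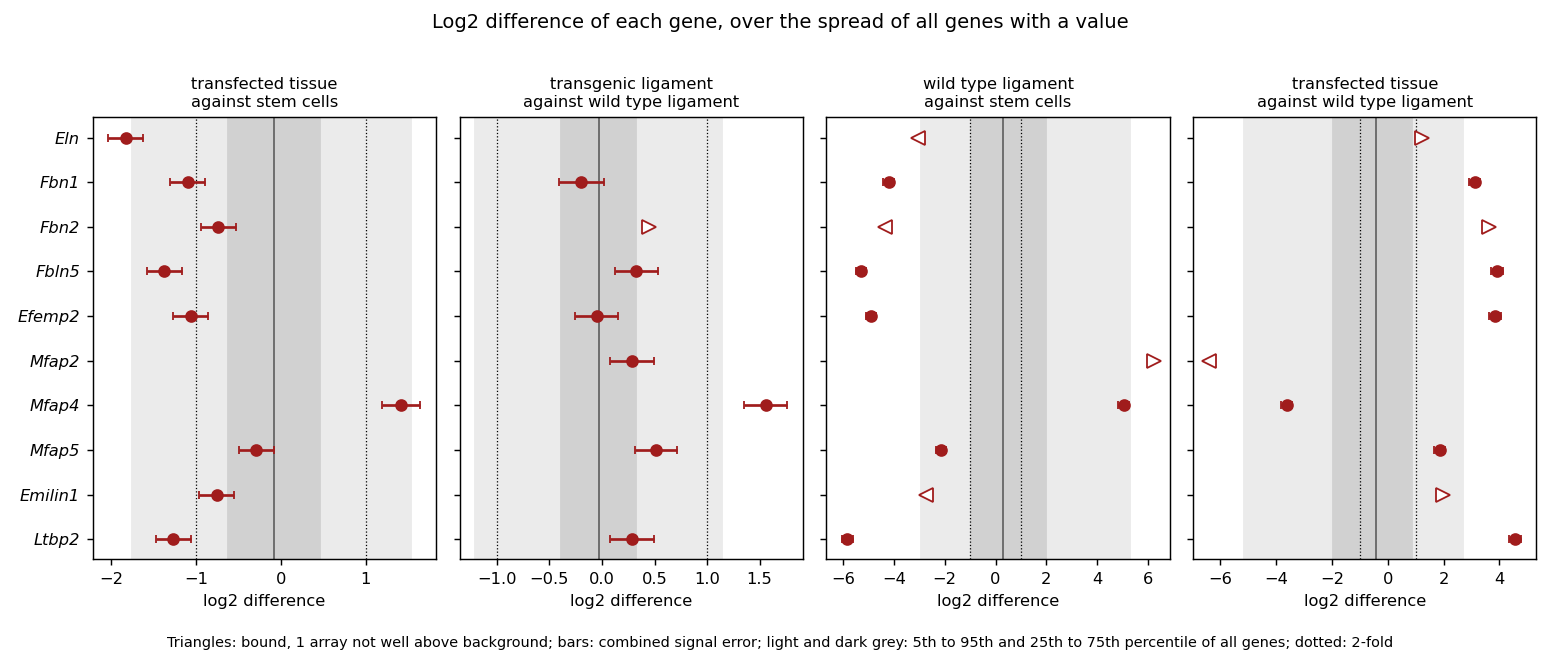
Log2 difference (x axis) of each of the 10 genes, 1 panel per comparison. Circles are measured values with combined signal errors, and triangles are values where 1 array was not well above background. Dotted lines mark 2-fold, and dark and light grey bands the 25th to 75th and 5th to 95th percentile of all genes with a value. In transfected tissue against stem cells 5 genes lie below the lower dotted line and Mfap4 above the upper one, and in either cell sample against wild type ligament all 10 lie outside the lines.

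Most of these calls lay close to 2-fold. Eln was past 2-fold under all 9 settings tried, the reported one included. Of these, the mean of all probes, the filters and keeping outlier spots could not change its value. The count of lower genes was 3 of 9 after quantile normalization, where 10.9% of all genes were lower. In the deposited value table that count was 1 of 9, against 11.2% of all genes, so that share did not stand out from all genes there. Fbln5 was −0.23 on its other probe, and Mfap4 was 0.80, under 2-fold, with normexp background correction. The summed level of 10 cell cycle markers was 149 in stem cells and 14.6 in the transfected tissue, and that of 10 smooth muscle and mural markers was 64.2 and 17.8, with Myh11, Lmod1 and Rgs5 not well above background in either. Of 6 adipocyte markers with a value, 4 were higher in the tissue and 0 lower, with a median log2 difference of 3.39. The part of these 3 lists in the differences of the elastic fibre genes was not tested.

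**Figure D3:**
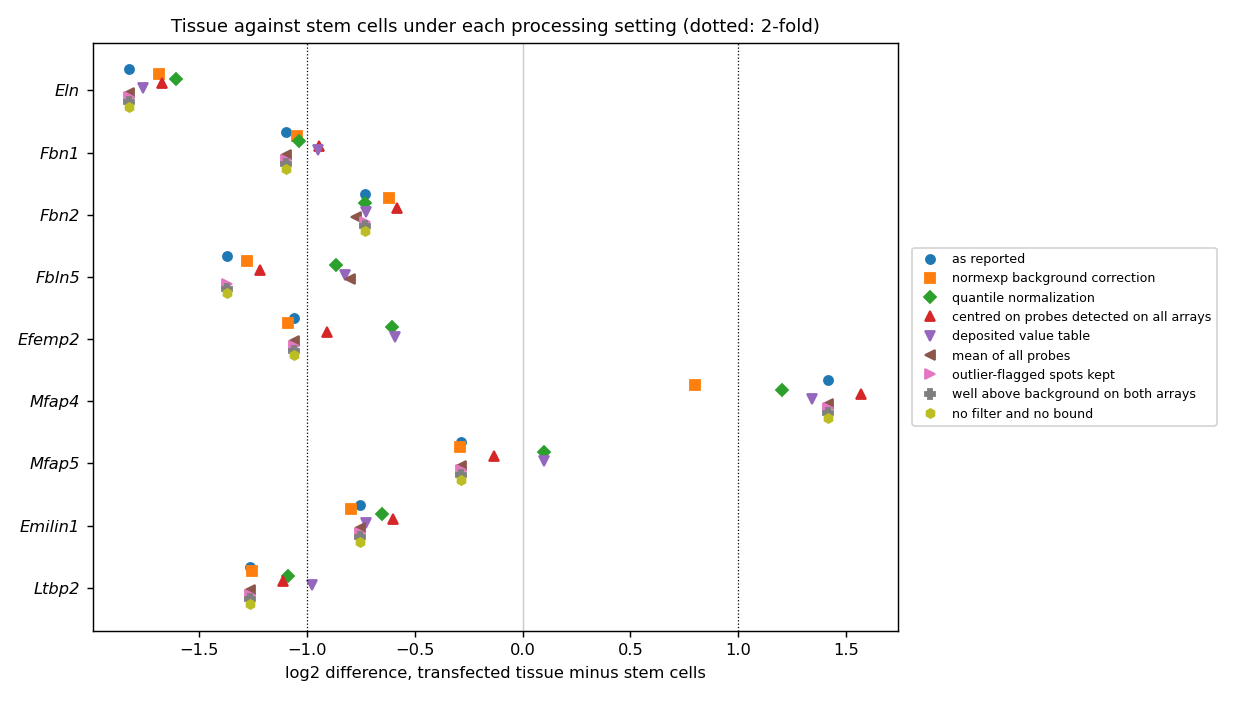
Log2 difference of transfected tissue against stem cells (x axis) of the 9 genes with a value, as reported and under each alternative setting, 1 symbol per setting; dotted lines mark 2-fold. Eln stays beyond the lower line under all 9 settings, Efemp2 and Fbln5 move inside it under quantile normalization, and Mfap5 lies on both sides of 0. For Eln, the mean of all probes, the filters and outlier spots kept could not change the value.

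Genes that assemble and crosslink elastic fibres but are not among the 10 went both ways in the tissue. Of 29 on the array, 26 had a value, of which 3 were past 2-fold upward and 4 downward, and their median log2 difference was 0.10. These counts lie near the shares over all genes, 11.0% higher and 13.3% lower. Lox, the lysyl oxidase that crosslinks elastin and collagen, was lower at −1.63, and its relative Loxl4 at −1.77. Fbln2, a long fibulin, was lower at −1.39. Adamts17, a metalloproteinase linked to fibrillin microfibrils, was higher at 3.15, and Fbln7 at 2.33. Among 22 elastin-degrading proteases and their inhibitors, 15 had a value, 2 higher and 3 lower, and the median was 0.04. The inhibitor genes Timp1 (−3.47), Slpi (−3.40) and Serpina1a (−2.76) were those lower. Mmp14, a membrane-bound metalloproteinase, was higher at 1.57, and Cela1, a pancreatic-type elastase, at 1.15.

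The second comparison set ligament of A-transgenic mice against wild type ligament, and thus asks about A in the animal. Mfap4 was the one gene of the 10 past 2-fold, higher by 2.94-fold (1.56 ± 0.20), and it stayed past 2-fold under all 9 settings. As for Eln above, the mean of all probes, the filters and keeping outlier spots could not change its value. Of 8 genes with a value, 1 was higher and 0 lower, against 6.29% higher and 7.04% lower of 16452 genes. The median was 0.31, against −0.03 over all genes. Mfap5 was 0.51 ± 0.20 and Fbln5 0.32 ± 0.20. Ltbp2 and Mfap2 were both 0.29, with Mfap2 at 0.63 on its other probe. Efemp2 at −0.05 ± 0.21 and Fbn1 at −0.20 ± 0.22 were within their errors of no difference. Fbn2 was at least 1.36-fold higher, a bound. Eln and Emilin1 gave no value, since neither ligament had a signal well above background.

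Marker RNA of several tissues also differed between the ligament arrays. The summed level of 10 tendon and ligament markers was 345 in transgenic and 259 in wild type ligament, with 8 of 10 higher and 0 lower. Of 8 neutrophil markers, all 8 were lower in transgenic ligament, and of 8 epidermis markers 7 were higher. The summed level of 8 bone markers was 187 in transgenic and 47.2 in wild type ligament. Smooth muscle and mural markers, 10 genes summing to 82.4 and 79.5, had 4 higher and 0 lower. Des was the brightest of them in both ligaments, and Myh11, Lmod1, Mylk and Actg2 were not well above background in wild type ligament. The part of these marker lists in the difference of Mfap4 was not tested.

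Of the assembly and crosslinking genes, 23 had a value, 2 higher and 0 lower, and the median was 0.31. Over all genes, 6.29% were higher and 7.04% lower. Lox was higher at 2.05 ± 0.24, or 4.13-fold, and Mmrn2, an EMILIN relative of blood vessels, at 1.42. Of the proteases and inhibitors, 18 had a value, 0 higher and 4 lower, and the median was −0.04. Slpi was lower at −2.78, Prtn3 at −1.97 and Elane at −1.39, and Cela1 was at least 2.09-fold lower. Prtn3 and Elane are serine proteases of neutrophil granules, and Elane also stands in the neutrophil marker list.

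**Figure D4:**
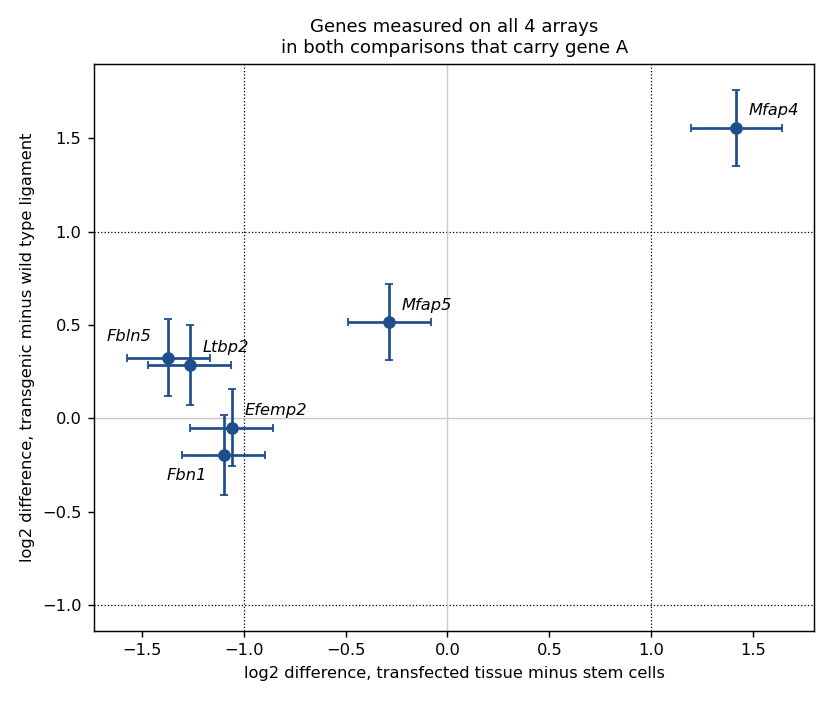
Log2 difference of transgenic against wild type ligament (y axis) by that of transfected tissue against stem cells (x axis), with combined signal errors. Shown are the 6 genes whose representing probe was well above background on all 4 arrays. Dotted lines mark 2-fold. Mfap4 is past 2-fold upward on both axes, while Fbn1, Efemp2, Fbln5 and Ltbp2 are past 2-fold downward on the x axis alone.

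The third comparison set wild type ligament against stem cells. All 10 genes lay past 2-fold, 8 lower and 2 higher, where 24.5% of 16628 genes were lower and 37.7% higher. The median was −3.63 over the 10 genes and 0.30 over all genes. Quantile normalization gave 30.8% of all genes higher and 30.0% lower and left the 8 and 2 as they were. Ltbp2 was 56.7-fold lower in ligament (−5.83 ± 0.21), Fbln5 38.9-fold, Efemp2 30.0-fold, Fbn1 18.5-fold and Mfap5 4.42-fold. Of all genes, 0.180% had a lower difference than Ltbp2. Fbn2 was at least 20.4-fold lower, Eln at least 8.33-fold and Emilin1 at least 6.61-fold. These bounds rest on the background correction. On the log2 scale they were −4.35, −3.06 and −2.72 as reported, and −2.80, −1.52 and −1.57 with normexp.

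Mfap4 was 32.9-fold higher in ligament (5.04 ± 0.22). Mfap2 was 75-fold higher on its representing probe and 4.21-fold on the other, the same direction after scaling with a size that rests on the probe. The stem cell spot of the representing probe was not well above background. It still lay above that array's dimmest signal that was, so 75-fold is a plain difference and no lower bound. That difference was 6.23 on the log2 scale as reported and 4.10 with normexp background correction. Fbln5 depended on its probe as well, being at least 1.64-fold lower on the other one. With transgenic in place of wild type ligament, 8 genes were again lower and 2 higher, against 23.4% and 37.9% of 17693 genes.

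Among the assembly and crosslinking genes, 25 had a value in ligament against stem cells, 5 higher and 13 lower, with a median of −1.01. Over all genes, 37.7% were higher and 24.5% lower. Lox was 72.0-fold lower and Loxl1, the oxidase tied most closely to elastin upkeep, 29.2-fold lower. Loxl4 was at least 14.9-fold lower. Ltbp4, a latent TGF-beta binding protein that works with fibulin-5 in elastin assembly, was 44.8-fold higher, and Mmrn1, an EMILIN relative of platelets and endothelium, at least 34.9-fold higher. Of the proteases and inhibitors, 19 had a value, 7 higher and 8 lower, with a median of −0.76. Those highest were Ctsk, the cathepsin of osteoclasts, at 9.08 on the log2 scale, and Ctsg, a neutrophil protease, at least 263-fold. Of the bone and neutrophil markers with a value, 6 of 6 and 8 of 8 were higher in ligament, against 37.7% of all genes. The bone list held no osteoclast marker, and the cell source of Ctsk and Ctsg was not tested.

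**Figure D5:**
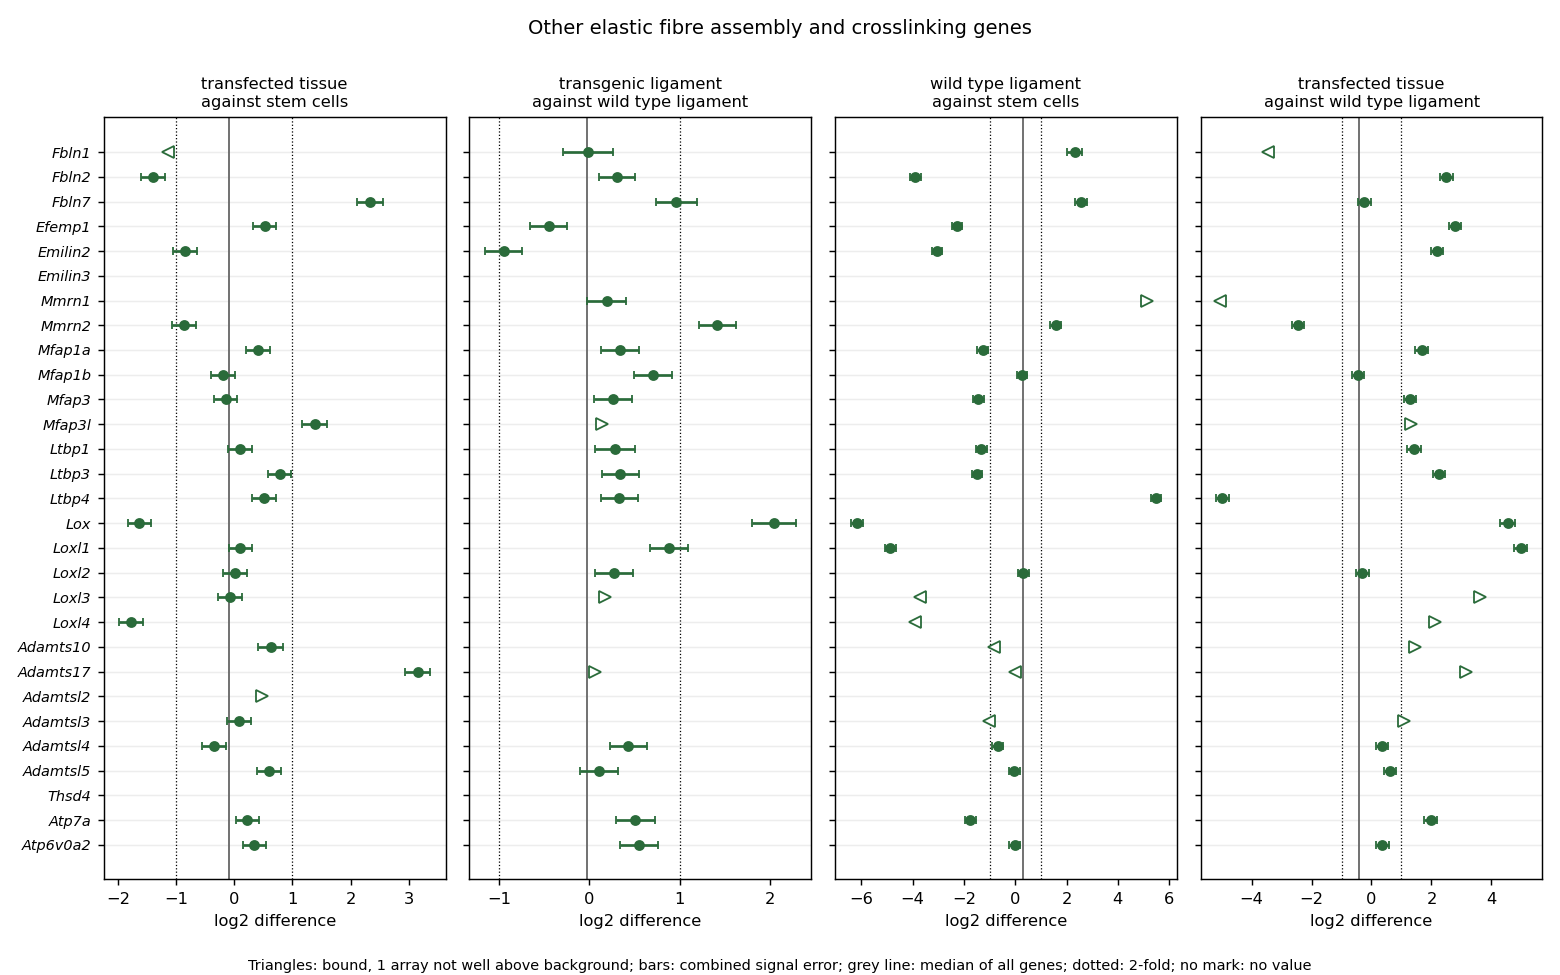
Log2 difference (x axis) of the 29 elastic fibre assembly and crosslinking genes, 1 panel per comparison. Circles are measured values with combined signal errors, and triangles are values where 1 array was not well above background. Dotted lines mark 2-fold, and a grey line the median of all genes. In wild type ligament against stem cells 13 of 25 genes are lower, Lox and Loxl1 among them, and Ltbp4 is higher.

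The fourth comparison set the transfected tissue against wild type ligament, which the protocol text raises as the likeness of their matrix. It shares the tissue array with the first comparison and the wild type array with the others, so its values are not separate evidence. All 10 genes again differed by more than 2-fold, 8 higher and 2 lower in the tissue, against 23.0% higher and 39.7% lower of 16546 genes. Quantile normalization made the shares over all genes 29.3% and 29.7%. Ltbp2 was 23.6-fold higher in the tissue, Fbln5 15.0-fold, Efemp2 14.4-fold, Fbn1 8.65-fold and Mfap5 3.63-fold. Fbn2 was at least 12.3-fold higher, Emilin1 at least 3.92-fold and Eln at least 2.35-fold. With normexp background correction Emilin1 fell under 2-fold (0.77) and Eln gave no value. Mfap4 was 12.3-fold lower in the tissue, and Mfap2 at least 84.5-fold lower, or 5.19-fold on its other probe. With normexp the log2 bound of Fbn2 went from 3.62 to 2.18, and that of Mfap2 from −6.40 to −4.72.

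The gap to wild type ligament was smaller from the tissue than from stem cells for Ltbp2, Fbln5, Efemp2, Fbn1, Mfap5 and Mfap4. These were the 6 genes measured on all 4 arrays by their representing probe. Mfap2, measured on all 4 by its other probe, went the other way, at 5.19-fold from the tissue and 4.21-fold from stem cells. On that probe the tissue and stem cells were within their summed errors. Wild type ligament lay above both cell samples for Mfap4, by 12.3-fold over the tissue and 32.9-fold over stem cells, and below both for Fbn1, by 8.65-fold and 18.5-fold. Each gene remained past 2-fold from ligament, and the gap of Mfap5 was the larger from the tissue after quantile normalization, where its difference between tissue and stem cells was 0.10. With transgenic in place of wild type ligament, the tissue had 8 of the genes higher and 2 lower, against 21.8% and 39.1% of 17613 genes. Of the assembly and crosslinking genes, 26 had a value against wild type ligament, 16 higher and 4 lower in the tissue, with a median of 1.37. Over all genes in that comparison, 23.0% were higher and 39.7% lower. Loxl1 was higher at 4.97 and Lox at 4.54, while Ltbp4 was 31.4-fold lower and Mmrn1 at least 33.2-fold lower. Of the proteases and inhibitors, 18 had a value, 8 higher and 8 lower, with a median of 0.22.

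The genes most like Fbn1 were sought as those with the smallest root mean square distance between centred log2 profiles over the 4 arrays, among 13035 genes well above background on all of them. Fbn1 stood in for Eln, which was not well above background in ligament. The 5 nearest were Ifitm3 (0.0724), Fads3 (0.0982), Cdca4 (0.102), Pgam1 (0.130) and Col5a1 (0.143), the last a collagen V chain. Of the elastic fibre genes, Efemp2 ranked 46, Fbln5 85, Ltbp2 359 and Mfap5 1293 of 13035, while Mfap4 ranked 12831. Of the 6 elastic fibre genes that could be compared in this way, the closest pair was Fbln5 and Efemp2, at 0.173. With 4 arrays the distance mostly reflects the gap between cells and ligament, and it is given as a description.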

How the data were processed

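Per the file headers, the authors' scanner files hold spot intensity as background-subtracted, detrended processed signal, with no normalization between arrays, from Feature Extraction 10.7.1.1. The submitters' processing notes name 9.5.1.1, and the difference was not settled. All arrays shared 1 slide and scan time. The authors' deposited table of values, linear intensity with a median of 49.7 in every column, served as an alternative. Its normalization is not given in the sources used here. Headers name mm9 for probe positions. Exon and intron annotation was not used here.

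From these, the log2 of processed signal was taken and centred on each array's 75th percentile (Python 3.11.15, pandas 2.3.3). Outlier spots were left out, and no member probe was among them. The probe that was brightest on average represents a gene. A gene was compared when well above background on at least 1 array. On its dim array, a value was raised to the array's dimmest signal that was well above background, unless it was higher already. Of the probes, 26761 of 39429 were named by RefSeq accession, the others by the files' symbol. Recovery of known fold changes was tested on simulated data. The SD over repeated spots of a probe was 0.0655 to 0.185 on the log2 scale.

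Named were all members, up to 5 genes per pathway list and comparison with the largest difference past 2-fold, and the 5 genes most like Fbn1. The 4 pathway lists were assembly and crosslinking, proteases and inhibitors, receptors, and TGF-beta. The 12 cell type lists were tendon and ligament, smooth muscle and mural, endothelium, cartilage, bone, skeletal muscle, erythroid, neutrophil, macrophage, epidermis, adipocyte and cell cycle. Members and lists were chosen with earlier results of these data known. Alternatives were normexp (offset 50, limma 3.58.1, R 4.3.3), quantile normalization, centring on probes above background on all arrays, the deposited table, the mean of all probes, outlier spots kept, 2 filters, and transgenic in place of wild type ligament.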

Additional observations from a re-analysis of the deposited data

Results flagged for a closer look

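Genes whose difference went down in the transfected tissue against stem cells and up in transgenic against wild type ligament, each by more than the root of the summed squares of the errors, are listed here. Against the plain sum of both arrays' errors, Mfap5 between tissue and stem cells and Ltbp2 between the ligaments were not beyond error. With 1 array per group the difference between the comparisons was not tested. Fbln5 was −1.37 in the tissue and 0.32 in transgenic ligament. With the mean of its probes the latter was −0.09. Ltbp2 was −1.27 in the tissue and 0.29 in transgenic ligament, and kept both signs under every setting that was run. Of these, the mean of all probes, the filters and outlier spots kept could not change its values. Mfap5 was −0.29 in the tissue and 0.51 in transgenic ligament, and the former turned to 0.10 with the deposited value table. None of the 3 was past 2-fold between the ligaments.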

How the results depend on the processing

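Of 40 differences of the 10 genes in 4 comparisons, 2 had both signs over the settings, Mfap5 in tissue against stem cells and Fbln5 between the ligaments. Of 305 recomputed values, 240 stayed within the set limits and 65 moved. A difference stayed within them when it changed by less than its combined signal error, which was wide for genes near background. The 240 include values that a setting could not change. No member probe was flagged as an outlier, and the mean of all probes left genes with 1 probe as they were. The filters did the same for genes well above background on both arrays. In tissue against stem cells, the higher count was 0 with normexp, and the lower count was 3 with quantile normalization, 3 with centring and 1 in the deposited table. The median there was −0.73 with quantile normalization, −0.73 in the deposited table and −0.79 with the mean of all probes. Between the ligaments, 3 were higher with no filter or bound.

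In wild type ligament against stem cells, the median was −2.58 with normexp, −4.0 with quantile normalization, −4.10 in the deposited table and −4.55 with no filter. With genes well above background on both arrays it was −4.56, with 1 higher and 5 lower, since 4 of the 10 genes then had no value. In tissue against wild type ligament it was 2.82 with transgenic ligament in its place, 2.18 with normexp, 3.00 with quantile normalization, 3.10 in the deposited table and 3.48 with no filter. With the filter on both arrays it was 3.48, with 5 higher and 1 lower. The median over all genes moved from 0.30 to −0.12 with quantile normalization in ligament against stem cells, and from −0.43 to 0.13 in tissue against ligament. Apart from the filters, the cause of these shifts was not tested.

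No paired analysis was possible because each group held 1 array. The number of arrays limits every value, and Eln, Emilin1 and Fbn2 in wild type ligament, and Mfap2 in the cells on its representing probe, were limited by background.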

Other observations

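Receptors of elastin and microfibrils, 12 genes, were mixed in the transfected tissue against stem cells, with 2 higher, 2 lower and a median log2 difference of −0.38. Neu1, the sialidase of the elastin receptor complex, was higher at 1.51 and Lgals3, a galectin, lower at −1.86. Itga8, an integrin chain that binds nephronectin and fibronectin, was higher at 1.1, and Itgb3 was lower at −1.08. Between the ligaments, Itgav was higher in the transgenic one at 1.55 and Itga5 lower at −1.06, and the median was 0.15. For wild type ligament against stem cells 3 of 11 were higher and 6 lower (median −1.18), and in tissue against wild type ligament 4 of 12 were higher and 3 lower (median 0.72). Over all genes, in the same order of comparisons, 11.0%, 6.29%, 37.7% and 23.0% were higher. Those lower were 13.3%, 7.04%, 24.5% and 39.7%.

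Of 16 TGF-beta genes on the array, 13 had a value in the transfected tissue against stem cells, 0 higher and 4 lower, with a median of −0.50. Among those lower were Inhba, an activin subunit, at −2.71, Tgfb3, a TGF-beta ligand, at −1.63 and Skil, a repressor of SMAD signalling, at −1.08. Between the ligaments 1 of 13 was higher, Skil at 1.07, and 0 lower, and the median was 0.55. For wild type ligament against stem cells 5 of 14 were higher and 6 lower (median −0.15), against 37.7% and 24.5% of all genes. In tissue against wild type ligament 5 of 13 were higher and 5 lower (median −0.63), against 23.0% and 39.7%. Shares over all genes in the first 2 comparisons are those given for the receptors.

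Among the other cell type lists, the summed level is given in the order stem cells, transfected tissue, wild type and transgenic ligament. It was 6.78, 3.67, 34.5 and 37.4 for endothelium, 16.7, 10.0, 2.52 and 8.53 for cartilage and 2.19, 1.77, 17.3 and 10.8 for macrophages. It was 0.0657, 0.0353, 560 and 120.5 for erythroid genes. Epidermis genes gave 0.937, 0.832, 28.3 and 157, adipocyte genes 6.30, 8.15, 149 and 151, and bone genes 0.262 and 1.05 in the cells.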
